A study of Homo sapiens with 12 samples.

Results

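The genes described are 48 components of DNA replication and of the entry into S phase, the part of the cell cycle in which the genome is copied. They were taken by symbol from a deposited RNA-seq table, and all 48 were among its 13310 genes. They comprise 11 genes of the replicative helicase, 7 of origin licensing, 7 of the polymerases and 6 of the sliding clamp and its loader. A further 5 handle single-stranded DNA and the lagging strand, 2 are of a histone chaperone, 4 of nucleotide supply and 6 of S-phase entry and fork protection. MCM10, which acts after licensing, is counted in the licensing class.

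The 12 libraries are of H9 cells, a human embryonic stem cell line in long use with a wild-type genotype in the labels, and fall into 4 groups of 3 replicates. FT671_NEUR libraries are from cells taken through neural differentiation with FT671, an inhibitor of the deubiquitinating enzyme USP7. DMSO_NEUR libraries had the solvent in place of the inhibitor, NEUR libraries had neither, and UNDIF libraries are from undifferentiated stem cells. The 3 differentiated groups share a protocol in which dual SMAD inhibition with A83-10 and dorsomorphin comes first, and then medium for neural stem cells that holds EGF and bFGF. The labels give neither the dose nor the duration of FT671, nor whether the replicates of a group were grown separately, and the spread behind each p-value is that between these libraries and may be technical. The treatment field of the DMSO_NEUR samples reads undifferentiated while their titles read neural, and the titles were followed. All results are from 1 cell line.

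Each library held between 15906471 and 17271155 reads over the genes of the table. The unit below is the normalized read count, which is comparable between libraries but not between genes, since it is not divided by transcript length. Log2 fold changes are on the scale of log2(normalized count + 1), calls were made where limma's adjusted p was below 0.05, and "rose" and "fell" are used of called genes only. Pairwise correlations of log2 values were 0.994 within FT671_NEUR, 0.993 to 0.995 within DMSO_NEUR, 0.988 to 0.995 within NEUR and 0.992 to 0.994 within UNDIF. RNA levels of cell-type markers differed between the groups. The 9 measured neural progenitor markers all fell with FT671 and summed to 9939 to 10220 normalized counts in FT671_NEUR libraries, against 86404 to 90555 in DMSO_NEUR, 87566 to 98604 in NEUR and 30141 to 34500 in UNDIF libraries. PAX6, a transcription factor of neural progenitors, had 18.01, 11.57 and 9.556 normalized counts in FT671_NEUR libraries, against 3754, 4250 and 3952 in DMSO_NEUR libraries, and FABP7 was at 0 in all 3 FT671_NEUR libraries. These markers do not bear out the neural label of the FT671_NEUR libraries. Between NEUR and UNDIF 6 of the 9 rose and 3 fell, FABP7 to 13.69, 18.59 and 16.93 in NEUR libraries, against 499.4, 512.8 and 504.8 in UNDIF libraries, SOX2 with a log2 fold change of -2.79 and OTX2 of -1.06. The 11 measured surface epithelium markers all rose with FT671 and summed to 158621 to 173688 in FT671_NEUR, against 36476 to 38457 in DMSO_NEUR, 45923 to 56441 in NEUR and 14331 to 14651 in UNDIF libraries. In NEUR against UNDIF they split, and 5 of the 11 rose (KRT18 by 3.30 on the log2 scale) while 6 fell (GRHL2 at -2.65). Of 7 mesenchyme markers, 4 rose and 3 fell with FT671 and all 7 rose in NEUR against UNDIF, and they summed to 126877 to 131402 in FT671_NEUR, against 55738 to 70132 in DMSO_NEUR, 66938 to 72596 in NEUR and 13895 to 15605 in UNDIF libraries. Of 9 pluripotency markers, 4 rose and 2 fell with FT671 and all 9 fell in NEUR against UNDIF, and they summed to 3570 to 4054 in FT671_NEUR, against 12007 to 13294 in DMSO_NEUR, 11984 to 12727 in NEUR and 63802 to 65067 in UNDIF libraries. SOX2 is counted among both the neural progenitor and the pluripotency markers. Of 5 neuron markers measured, 1 rose and 4 fell with FT671, and 3 rose and 2 fell in NEUR against UNDIF. They summed to 625.4 to 673.4 in FT671_NEUR, against 842.2 to 995.7 in DMSO_NEUR, 779 to 963.2 in NEUR and 2651 to 3023 in UNDIF libraries. Of all genes, 40.2% rose and 39.7% fell with FT671, and 40.4% rose and 41.6% fell in NEUR against UNDIF. The 4 of 9 pluripotency markers that rose and the 3 of 7 mesenchyme markers that fell with FT671 are near these shares. In bulk RNA, a difference in cell makeup and a difference in marker RNA per cell cannot be told apart. The part of either in the results below was not tested.

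As background, replication starts where the origin recognition complex marks DNA and, with CDC6 and CDT1, loads rings of MCM2 to MCM7 that are still inactive. In S phase CDC45 and the GINS complex join each ring to make the working helicase, polymerases copy the strands behind it, and PCNA, a ring loaded by RFC, holds them on DNA. Transcription of most of these genes peaks around the start of S phase under E2F factors, which the retinoblastoma family restrains until cyclin-dependent kinases release them. Human embryonic stem cells cycle fast, with a short G1 phase, so these genes are highly transcribed in them.

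With FT671, the replication genes fell almost as a body. Against DMSO_NEUR, 45 of the 48 were lower in FT671_NEUR libraries and 1 was higher, while 39.7% of all 13310 genes were called lower and 40.2% higher. The median log2 fold change of the 48 was -1.79, beside 0.01 over all genes, and 38 of them fell at least 2-fold, which 14.4% of all genes did. In 45 of the 48 every FT671_NEUR library was below every DMSO_NEUR library, as in 41.9% of all genes, and in 45 of the 48 every FT671_NEUR library was below all 9 other libraries, as in 27.9% of all genes. The exceptions to the last count were ORC2, RFC1 and CCNE1. The 48 genes together took 0.156%, 0.163% and 0.144% of the reads in the table in FT671_NEUR libraries, against 0.518%, 0.488% and 0.472% in DMSO_NEUR libraries, 0.485%, 0.490% and 0.503% in NEUR libraries and 0.678%, 0.700% and 0.698% in UNDIF libraries. That share did not overlap between FT671_NEUR and any other group, and it was alike in DMSO_NEUR and NEUR libraries. In bulk RNA, fewer cycling cells and less of these RNAs per cell cannot be told apart.

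**Figure D1:**
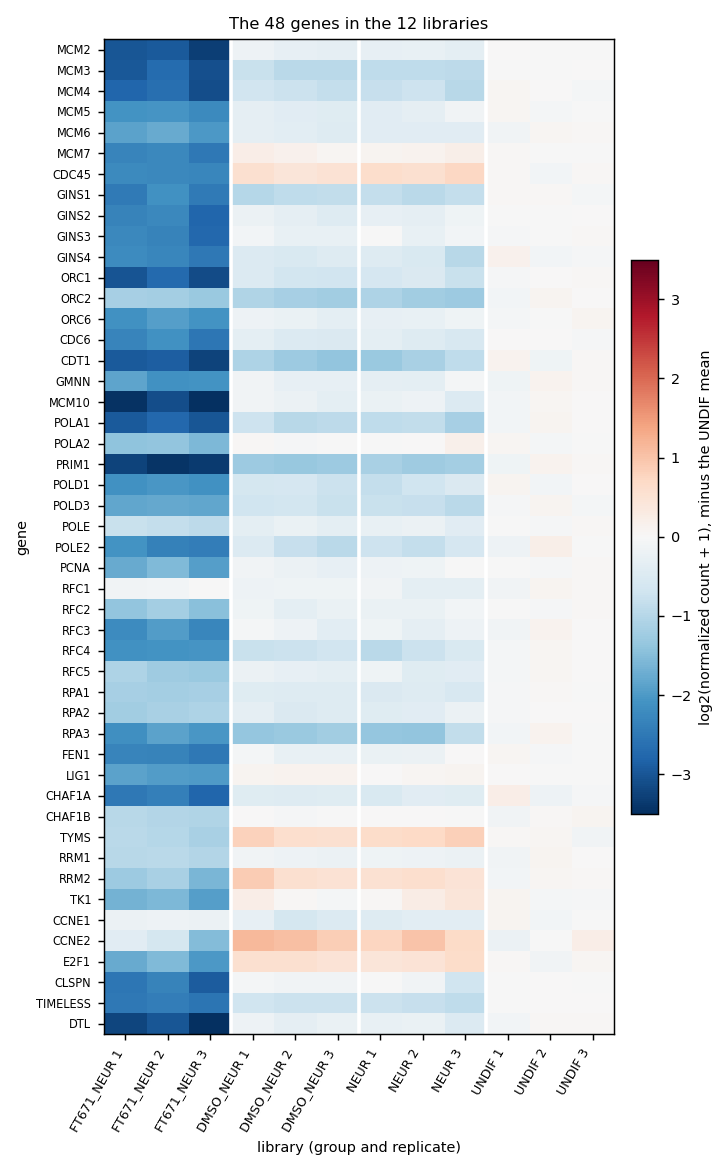
Level of each of the 48 genes (rows) in each of the 12 libraries (columns), as log2(normalized count + 1) minus the gene's mean in UNDIF libraries (blue lower, red higher). The 3 FT671_NEUR columns at the left are the lowest of their row in 45 of 48 rows, the exceptions being ORC2, RFC1 and CCNE1, and DMSO_NEUR and NEUR columns look alike.

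Because these genes moved together, their promoters were searched for the element bound by E2F factors. RefSeq windows (GRCh38.p14) of 250 bases before to 50 after a transcription start were at hand for 41 of the 48 genes. The element was taken as TTTCGCGC, TTTGGCGC, TTTCCCGC or TTTGCCGC on either strand. At least 1 copy stood in a window of 21 of the 41 genes (51.2%), against 628 of the 9830 genes of the table with a window (6.39%). Counted by window of the same length, it was in 21 of 50 windows of these genes (42%) and in 910 of 22199 windows of all protein-coding genes (4.1%). The spellings were settled after matches in these promoters had been seen. By spelling, TTTCGCGC was in 5 of the 41 genes, TTTGGCGC in 9, TTTCCCGC in 10 and TTTGCCGC in 1, and the share of all genes of the table was 1.07%, 1.31%, 3.19% and 1.07% in that order. Other motifs searched were CCAAT, found in 27 of 41 genes (65.9%) and in 43.3% of the table, TTTGAA, in 1 of 41 and in 13.7%, and TTCGAA, in 1 of 41 and in 2.34%. A match is a description of letters, not of a bound site.

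The following stretches are the 120 bases before the start of 5 genes with the element in that stretch and of the 3 genes not called lower with FT671, chosen after values and matches were seen, 5′ to 3′ on the strand of the gene, with the element in capitals. In E2F1 the 2 elements face opposite ways, and in MCM6 a pair of elements on opposite strands overlaps to give 1 continuous run.
DTL (chr1:212035628-212035747, plus strand): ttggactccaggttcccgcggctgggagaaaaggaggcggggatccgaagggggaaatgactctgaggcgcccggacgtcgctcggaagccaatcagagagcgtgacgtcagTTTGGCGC
E2F1 (chr20:33686386-33686505, minus strand): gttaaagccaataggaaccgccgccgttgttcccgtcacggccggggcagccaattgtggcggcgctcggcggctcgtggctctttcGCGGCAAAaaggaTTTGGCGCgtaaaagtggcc
MCM7 (chr7:100101398-100101517, minus strand): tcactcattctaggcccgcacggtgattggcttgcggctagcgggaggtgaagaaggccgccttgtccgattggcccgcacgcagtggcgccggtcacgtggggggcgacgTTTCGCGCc
MCM6 (chr2:135876444-135876563, minus strand): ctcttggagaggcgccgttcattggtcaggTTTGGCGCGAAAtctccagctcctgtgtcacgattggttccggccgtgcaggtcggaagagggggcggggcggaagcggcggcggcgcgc
RFC3 (chr13:33818029-33818148, plus strand): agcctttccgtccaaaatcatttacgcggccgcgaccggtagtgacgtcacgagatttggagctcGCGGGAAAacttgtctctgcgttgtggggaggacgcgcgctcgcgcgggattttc
The stretches of the 3 genes not called lower with FT671 hold none of the 4 spellings.
ORC2 (chr2:200963661-200963780, minus strand): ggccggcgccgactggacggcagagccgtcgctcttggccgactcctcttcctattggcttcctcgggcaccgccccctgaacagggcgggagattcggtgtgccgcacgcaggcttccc
RFC1 (chr4:39366363-39366482, minus strand): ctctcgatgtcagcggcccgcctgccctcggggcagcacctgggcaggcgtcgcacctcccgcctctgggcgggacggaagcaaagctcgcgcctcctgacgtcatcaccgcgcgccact
CCNE1 (chr19:29811871-29811990, plus strand): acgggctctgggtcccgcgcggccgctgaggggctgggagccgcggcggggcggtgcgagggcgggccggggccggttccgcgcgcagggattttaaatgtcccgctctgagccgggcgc

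All 21 genes with the element fell with FT671, and their median log2 fold change was -1.94 (range -3.05 to -0.54). Of the 20 genes whose window lacked these letters, 17 fell, and the median was -1.60 (range -3.22 to 0.26). The ranges overlap widely, and MCM10, the gene with the largest fall of all 48, is among the 20. Over the table, 52.7% of the 628 genes with the element were called lower and their median was -0.25, against 39.3% and a median of 0.02 for the 9202 without it. The 7 genes MCM4, MCM5, GINS4, POLD3, RPA2, RPA3 and CCNE2 were not searched.

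**Figure D2:**
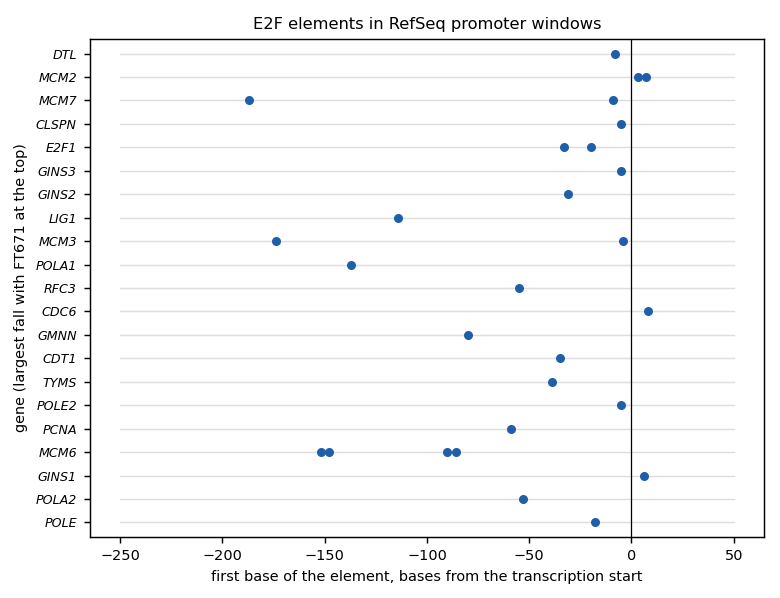
Position of the first base of each E2F element (points) in the promoter windows of the 21 genes that hold one, in bases from the transcription start (x axis, vertical line at the start), with the genes ordered by their fall with FT671 and grey lines for the window searched. Most elements lie near the start, just before it in DTL (-8) and just after it in CDC6 (8). Some lie farther upstream, as in LIG1 (-114), POLA1 (-137), MCM6 (-152), MCM3 (-174) and MCM7 (-187).

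All 11 genes of the helicase fell with FT671 (median log2 fold change -2.09), and MCM2, a ring subunit, fell most among them. MCM2 had 542.6, 565 and 438.5 normalized counts in FT671_NEUR libraries, against 3815, 3535 and 3506 in DMSO_NEUR libraries. That is 7.02-fold lower (log2 fold change -2.82, SE 0.08, adjusted p = 1.03e-14), with a gap of several fold between the highest FT671_NEUR and the lowest DMSO_NEUR library. The other ring subunits fell by log2 values between MCM7 (-2.51) and MCM6 (-1.50), with MCM4 at -2.09, MCM3 at -2.04 and MCM5 at -1.74. CDC45, which joins the ring to form the active helicase, had 107, 104.2 and 103 normalized counts in FT671_NEUR libraries, against 744.9, 678 and 713.3 in DMSO_NEUR libraries, and its log2 fold change was -2.75 (SE 0.08, adjusted p = 2.37e-14). The GINS subunits, which complete the helicase, fell less evenly, with GINS3 at -2.24, GINS2 at -2.13, GINS4 at -1.85 and GINS1 at -1.44. GINS1, the smallest change of the class, still had 379.4, 486.1 and 379 normalized counts in FT671_NEUR libraries, against 1057, 1149 and 1161 in DMSO_NEUR libraries (adjusted p = 1.73e-10), and the groups did not overlap.

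In the licensing class, which here includes MCM10, 6 of 7 genes fell (median -1.80). MCM10, which helps to switch on the loaded helicase, had 95.37, 122.1 and 75.38 normalized counts in FT671_NEUR libraries, against 972.5, 910.5 and 829.6 in DMSO_NEUR libraries. This 9.26-fold difference (log2 fold change -3.22, SE 0.13, adjusted p = 9.99e-13) was the largest among the 48 genes. ORC1, the ATPase subunit of the origin recognition complex whose amount varies over the human cell cycle, fell by 2.35 on the log2 scale, and ORC6, another subunit, by 1.80. ORC2, a core subunit of the same complex, behaved otherwise, with 630.5, 616.6 and 579.7 normalized counts in FT671_NEUR libraries, against 679.8, 628.6 and 603.9 in DMSO_NEUR libraries. Its libraries overlapped and its log2 fold change was -0.06 (SE 0.08, adjusted p = 0.469). With libraries scaled by their totals it was called lower (-0.19, adjusted p = 0.0484). CDC6 and CDT1, the loaders of the MCM ring, fell by 1.88 and 1.78, and GMNN, geminin, which blocks CDT1 once S phase has begun, fell by 1.79. The loaders and their inhibitor therefore fell by nearly the same amount.

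All 7 polymerase genes fell (median -1.44). The largest falls were in PRIM1 (-2.05) and POLA1 (-2.02), the primase and the catalytic subunit of the primer-making polymerase alpha, whose accessory subunit POLA2 was at -1.44. PRIM1 had 96.43, 85.23 and 90.25 normalized counts in FT671_NEUR libraries, against 385.1, 369 and 382.1 in DMSO_NEUR libraries (SE 0.09, adjusted p = 2.82e-12), and each group was tight. POLD1 and POLD3, of the polymerase assigned mainly to the lagging strand, fell by 1.43 and 1.10. POLE, the catalytic subunit of the leading-strand polymerase, had the smallest change of the class, with 1833, 1748 and 1647 normalized counts in FT671_NEUR libraries, against 2469, 2656 and 2450 in DMSO_NEUR libraries. Its log2 fold change of -0.54 (SE 0.07, adjusted p = 1.46e-06) is smaller than that of POLE2 (-1.55, SE 0.14), its partner subunit, although the 2 subunits were not tested against each other.

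Of the clamp and its loader, 5 of 6 genes fell (median -1.22). PCNA, the clamp, fell by 1.53. RFC3, a small loader subunit, had 275.5, 328.3 and 261.2 normalized counts in FT671_NEUR libraries, against 1226, 1129 and 981.1 in DMSO_NEUR libraries (log2 fold change -1.94, SE 0.10, adjusted p = 1.66e-11). The other small subunits followed with RFC4 at -1.35, RFC2 at -1.09 and RFC5 at -0.93. RFC1, the large subunit that makes this loader specific for PCNA, had 2217, 2265 and 2425 normalized counts in FT671_NEUR libraries, against 2134, 2204 and 2172 in DMSO_NEUR libraries. The FT671_NEUR values were all above the DMSO_NEUR values by a narrow margin, and the difference was not called (log2 fold change 0.08, SE 0.07, adjusted p = 0.304).

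All 5 genes for single-stranded DNA and the lagging strand fell, in 2 sizes. FEN1, which cuts the flaps of Okazaki fragments, had 538.3, 528.2 and 474.6 normalized counts in FT671_NEUR libraries, against 2562, 2218 and 2241 in DMSO_NEUR libraries (log2 fold change -2.18, SE 0.08, adjusted p = 2.23e-13), and LIG1, which seals the nicks, fell by 2.05. The 3 subunits of RPA, the protein that coats single-stranded DNA in replication and in repair, fell by only 0.72 each. RPA3 had 197.1, 236.8 and 211.3 normalized counts in FT671_NEUR libraries, against 337.5, 351.6 and 370.3 in DMSO_NEUR libraries (SE 0.12, adjusted p = 4.78e-05), without overlap. Of the 2 subunits of CAF-1 measured, which places histones on new DNA, CHAF1A had 427.1, 463 and 352.5 normalized counts in FT671_NEUR libraries, against 1807, 1784 and 1821 in DMSO_NEUR libraries, a log2 fold change of -2.13 (SE 0.10, adjusted p = 5.71e-12). CHAF1B had 462, 445.1 and 434.2 in FT671_NEUR libraries, against 914.1, 869.8 and 899 in DMSO_NEUR libraries, a 2-fold difference (SE 0.07 on the log2 scale, adjusted p = 1.47e-09).

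The 4 nucleotide supply genes all fell (median -1.72). RRM2, the small subunit of ribonucleotide reductase that limits the enzyme's activity to S phase, had 839.3, 915.4 and 666.8 normalized counts in FT671_NEUR libraries, against 3736, 3019 and 2874 in DMSO_NEUR libraries (log2 fold change -1.99, SE 0.11, adjusted p = 2.81e-11). RRM1, the large subunit, had 2236, 2292 and 2172 in FT671_NEUR libraries, against 4074, 3898 and 3852 in DMSO_NEUR libraries, a smaller fall of 0.82 (SE 0.06, adjusted p = 3.78e-09). TYMS, which makes thymidylate, had 746, 715.5 and 647.7 normalized counts in FT671_NEUR libraries, against 2469, 2122 and 2096 in DMSO_NEUR libraries, and TK1, the salvage kinase for thymidine, had 568, 601.9 and 467.2 against 2088, 1820 and 1690 in the same groups. In neither gene did the groups overlap, and the log2 fold changes were -1.66 for TYMS and -1.77 for TK1.

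In the class of S-phase entry and fork protection, 5 of 6 genes fell and 1 rose. DTL, which brings CDT1 to its ubiquitin ligase for destruction in S phase, had 175.9, 203.1 and 126.3 normalized counts in FT671_NEUR libraries, against 1437, 1314 and 1376 in DMSO_NEUR libraries (log2 fold change -3.05, SE 0.13, adjusted p = 8.68e-13). CLSPN and TIMELESS, which travel with the fork and pass on the checkpoint signal, fell by 2.49 and 1.76. E2F1, the activating E2F factor whose own promoter is printed above with 2 elements, had 255.4, 298.8 and 216.6 normalized counts in FT671_NEUR libraries, against 1285, 1283 and 1206 in DMSO_NEUR libraries (log2 fold change -2.30, SE 0.10, adjusted p = 2.49e-12). The E-type cyclins, which drive the kinase CDK2 at the start of S phase, went opposite ways. CCNE2 had 45.57, 38.93 and 20.17 normalized counts in FT671_NEUR libraries, against 133.2, 125.9 and 110.4 in DMSO_NEUR libraries, with a log2 fold change of -1.86 and the widest error of the 48 genes (SE 0.24, adjusted p = 1.6e-06). CCNE1 had 497, 512.4 and 505.4 in FT671_NEUR libraries, against 473.6, 377.7 and 415.3 in DMSO_NEUR libraries (log2 fold change 0.26, SE 0.09, adjusted p = 0.0138). This call is fragile, since its adjusted p is 0.153 when libraries are scaled by their totals and 0.0885 without DMSO_NEUR replicate 2.

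**Figure D3:**
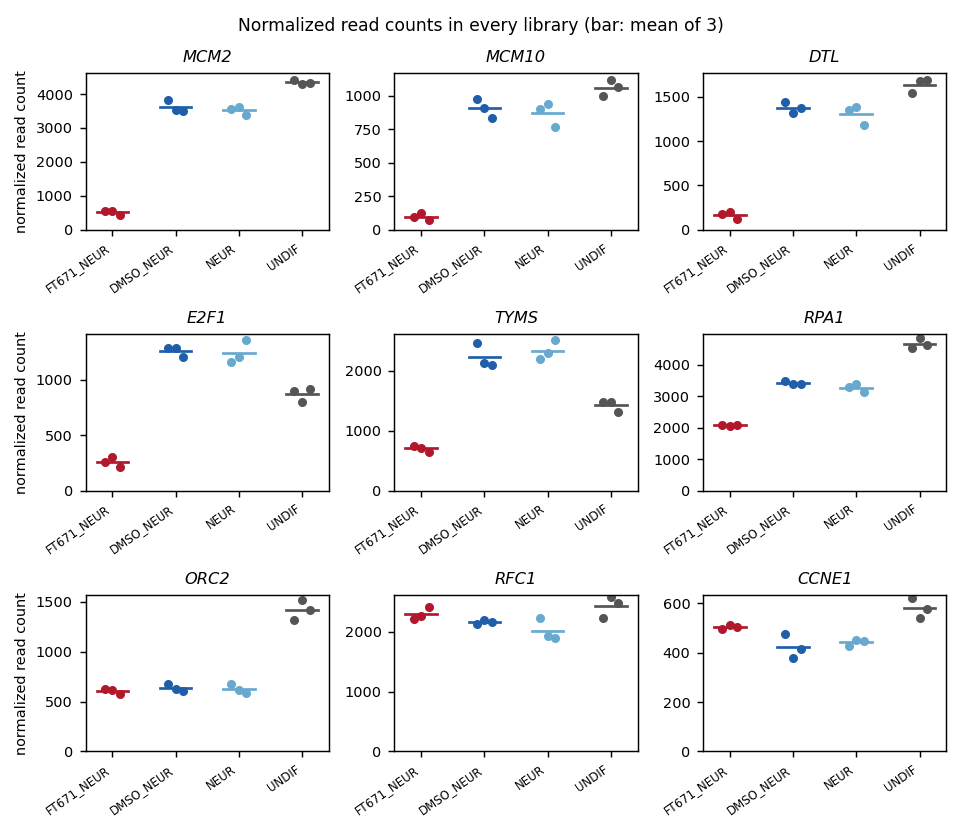
Normalized read count (y axis, from 0) of 9 genes in every library of the 4 groups (x axis), with a point per library and a bar at the mean of 3. MCM2, MCM10, DTL, E2F1, TYMS and RPA1 are lowest in FT671_NEUR libraries, ORC2 is alike in the 3 differentiated groups, RFC1 varies little between groups, and CCNE1 is slightly higher in FT671_NEUR than in DMSO_NEUR libraries.

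Exons of 9 of the 48 genes overlap those of another gene of the table in the GENCODE v29 annotation, namely CCNE2, FEN1, GINS2, MCM2, MCM7, PRIM1, RFC4, RPA3 and TYMS. Whether counting used strand, and how it treated reads in such overlaps, is not given in the sources used here. The counts of these genes could therefore be affected by the neighbour (for TYMS, ENOSF1 and TYMSOS).

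In the untreated course of differentiation the fold changes of the same genes were smaller in size than with FT671, except for ORC2, RPA3, RFC1 and CCNE1. Against UNDIF, 32 of the 48 were lower in NEUR libraries and 6 higher, while 41.6% of all genes were lower and 40.4% higher. The median was -0.30, beside -0.03 over all genes. At least 2-fold falls were seen for 4 of the 48, namely RPA3 (-1.20), PRIM1 (-1.19), ORC2 (-1.18) and CDT1 (-1.11), against 16.5% of all genes. A rise of at least 2-fold was called for 0 of the 48 against 15.4% of all genes. The authors' deposited table gives an FDR under 0.05 for 40 of the 48 genes in undifferentiated against neural cells. The 38 called here are all among these. The share of all genes under that FDR was not counted, and the calls made here covered 41.6% of all genes as lower and 40.4% as higher. Both sets of calls are from the same libraries, so the match is no independent support. With the solvent the course was alike: against UNDIF, 32 of the 48 were lower in DMSO_NEUR libraries (41% of all genes) and 5 higher (39.1%), with a median of -0.30. The comparisons against UNDIF share the UNDIF libraries.

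The 6 genes that rose in NEUR libraries were CDC45, TYMS, RRM2, TK1, CCNE2 and E2F1. So 3 of the 4 nucleotide supply genes rose, beside 40.4% of all genes. In the helicase class 1 rose and in that of S-phase entry and fork protection 2, while every other class had no member that did. TYMS had 2200, 2289 and 2517 normalized counts in NEUR libraries, against 1474, 1481 and 1317 in UNDIF libraries (log2 fold change 0.71, SE 0.08, adjusted p = 6.36e-07). RRM2 had 2936, 3057 and 2843 in NEUR libraries, against 1896, 2110 and 2084 in UNDIF libraries (0.54, SE 0.11, adjusted p = 0.000226). Neither gene's groups overlapped. TK1 had 1851, 2121 and 2398 in NEUR libraries, against 1922, 1690 and 1748 in UNDIF libraries, which do overlap (0.24, SE 0.11, adjusted p = 0.0473), and the call is lost with libraries scaled by their totals (adjusted p = 0.387). RRM1, the partner of RRM2, fell slightly, with 4016, 3904 and 3855 normalized counts in NEUR libraries, against 4066, 4718 and 4497 in UNDIF libraries (-0.17, SE 0.06, adjusted p = 0.0215).

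CDC45 had 766.6, 734.8 and 822.8 normalized counts in NEUR libraries, against 520.5, 466.7 and 521.5 in UNDIF libraries (log2 fold change 0.62, SE 0.08, adjusted p = 3.83e-06). It was the only helicase gene that rose, while 8 of 11 fell, among them MCM2 with 3549, 3623 and 3396 in NEUR libraries, against 4415, 4300 and 4322 in UNDIF libraries (-0.30, SE 0.08, adjusted p = 0.00267), and GINS1 with 1176, 1102 and 1191, against 2166, 2151 and 2014 (-0.87). MCM3 (-0.90), MCM4 (-0.84), GINS4 (-0.65), MCM6 (-0.40), MCM5 (-0.28) and GINS2 (-0.26) fell as well, and MCM7 (0.14) and GINS3 (-0.13) were not called. E2F1 had 1160, 1203 and 1353 normalized counts in NEUR libraries, against 897.5, 798.8 and 919.4 in UNDIF libraries (0.51, SE 0.10, adjusted p = 0.000265). CCNE2 had 102.7, 120.3 and 95.63 in NEUR libraries, against 51.67, 59.27 and 70.65 in UNDIF libraries (0.81, SE 0.24, adjusted p = 0.00494). CCNE1 fell, with 426.3, 450.1 and 448.3 normalized counts in NEUR libraries, against 621, 541 and 574.5 in UNDIF libraries (-0.39, SE 0.09, adjusted p = 0.000908). The E-type cyclins thus also differed in direction here.

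ORC2, which was not called with FT671, fell in the course of differentiation. It had 675.7, 614.5 and 589.7 normalized counts in NEUR libraries, against 1319, 1521 and 1421 in UNDIF libraries (log2 fold change -1.18, SE 0.08, adjusted p = 6.83e-10), and its 3 differentiated groups lie together. PRIM1 had 421.4, 391.4 and 400.5 in NEUR libraries, against 835.3, 997.3 and 943.6 in UNDIF libraries (-1.19, SE 0.09, adjusted p = 3.64e-09), and RPA3 had 340.3, 331.7 and 473.2, against 813.3, 938 and 859 (-1.20, SE 0.12, adjusted p = 1.08e-07). PRIM1 and RPA3 also fell with FT671, as given above. The rest of the licensing class, CDT1 (-1.11), ORC1 (-0.62), CDC6 (-0.46), GMNN (-0.25) and ORC6 (-0.23), fell, and MCM10, with 901.6, 937.3 and 764.1 in NEUR libraries, against 995.1, 1115 and 1061 in UNDIF libraries, was not called (-0.29, adjusted p = 0.0569). Of the polymerases, POLA1 (-0.97), POLD3 (-0.85), POLE2 (-0.72) and POLD1 (-0.67) fell, POLE fell with 2590, 2698 and 2392 in NEUR libraries, against 3099, 3050 and 3244 in UNDIF libraries (-0.29), and POLA2 (0.05) was not called.

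The remaining genes were those of the clamp, of RPA with FEN1 and LIG1, of CAF-1 and of the fork. RFC4 (-0.75), RFC5 (-0.32), RFC1 (-0.27) and RFC2 (-0.19) fell, and PCNA (-0.11) and RFC3 (-0.22) were not called. RFC1 had 2226, 1931 and 1907 normalized counts in NEUR libraries, against 2227, 2585 and 2480 in UNDIF libraries, and RFC3 had 1144, 1029 and 1122, against 1172, 1389 and 1276. RPA1 (-0.51) and RPA2 (-0.34) fell, and LIG1 (0.05) and FEN1, with 2279, 2317 and 2674 in NEUR libraries, against 2786, 2596 and 2635 in UNDIF libraries (-0.14), were not called. CHAF1A fell, with 1677, 1835 and 1805 in NEUR libraries, against 2833, 2144 and 2355 in UNDIF libraries (-0.45), and CHAF1B had 908.4, 909 and 900.5, against 827.6, 926.7 and 959.4 (0.01, not called). TIMELESS (-0.82) fell, DTL fell with 1350, 1383 and 1176 in NEUR libraries, against 1537, 1673 and 1686 in UNDIF libraries (-0.33, adjusted p = 0.0245), and CLSPN (-0.28) was not called.

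In NEUR against UNDIF, several calls of small changes lie close to the threshold and are lost when a library is left out. Log2 fold changes then were -0.23 to -0.27 for GINS2, -0.17 to -0.21 for RFC2, -0.19 to -0.23 for GMNN and -0.25 to -0.31 for DTL. For RRM1 they were -0.12 to -0.17, against -0.17 with all libraries, and for TK1 0.15 to 0.24, against 0.24. ORC6 was at -0.19, against -0.23. Without any of NEUR replicates 1 and 2 or the UNDIF replicates, GINS2 (adjusted p 0.0698 to 0.11) and RFC2 (0.0536 to 0.122) are no longer called. GMNN is lost without NEUR replicate 1 or 2 or UNDIF replicate 2 or 3 (0.0754 to 0.117), TK1 without NEUR replicate 2 or 3 or UNDIF replicate 2 or 3 (0.0897 to 0.191), and RRM1 without NEUR replicate 2 or UNDIF replicate 2 or 3 (0.0524 to 0.0984). DTL is lost without NEUR replicate 3 or UNDIF replicate 2 or 3 (0.0675 to 0.0843), and ORC6 without UNDIF replicate 3 (0.0773). In the other direction, CLSPN is called lower without NEUR replicate 1 (0.0186), MCM10 without NEUR replicate 2 (0.0473), FEN1 without NEUR replicate 3 (0.0122) and RFC3 without UNDIF replicate 1 (0.0313). MCM10 is also called lower by DESeq2 (0.0114), by edgeR (0.0195), in the 6 libraries alone (0.0198), with the replicate block (0.0269), with a pseudocount of 8 (0.046) and with libraries scaled by their totals (0.00749). RFC3 is called lower by DESeq2 (0.0402), by edgeR (0.0433), in the 6 libraries alone (0.0472) and with library totals (0.00456). Such alternatives also remove calls. RFC2 (0.0526) and RRM1 (0.0739) are lost in the 6 libraries alone. With the replicate block RFC2 (0.0573) and TK1 (0.057) are lost, and CLSPN is called lower (0.0461).

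**Figure D4:**
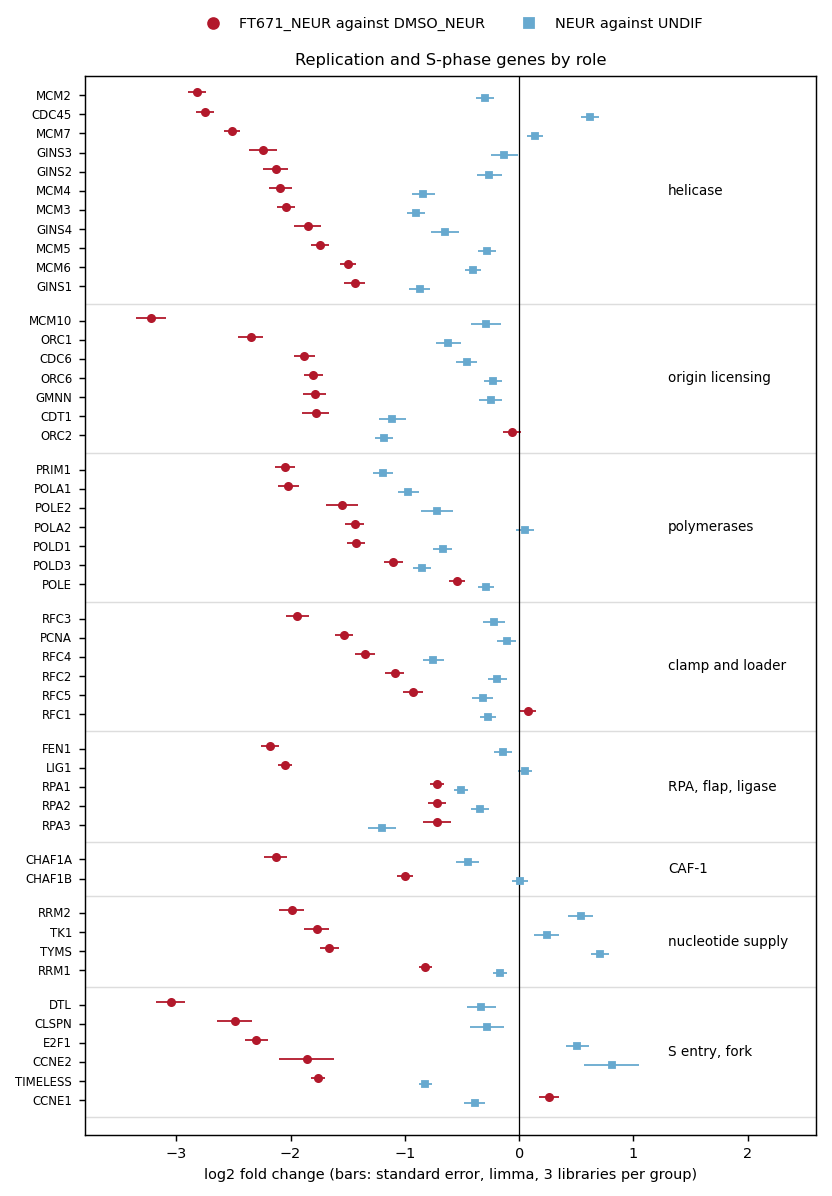
Log2 fold change (x axis) of each of the 48 genes (y axis, grouped by role), for FT671_NEUR against DMSO_NEUR (red circles) and NEUR against UNDIF (blue squares), with bars for the standard error. Red circles lie left of 0 except for RFC1 (0.08) and CCNE1 (0.26), and blue squares lie closer to 0 than the red circles except for ORC2, RPA3, RFC1 and CCNE1, with CDC45, TYMS, RRM2, TK1, CCNE2 and E2F1 called on the right.

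The comparisons FT671_NEUR against DMSO_NEUR and NEUR against UNDIF share no library. Across the 48 genes their log2 fold changes had a Pearson correlation of -0.234 and a Spearman correlation of -0.223, and across all 13310 genes of -0.148 and -0.00938. These are descriptions across genes, which are not independent replicates. The 6 genes that rose in NEUR libraries all fell with FT671, as did 45 of the 48 genes and 39.7% of all genes. Log2 fold changes of the 6 were -2.75 for CDC45, -2.30 for E2F1, -1.99 for RRM2, -1.86 for CCNE2, -1.77 for TK1 and -1.66 for TYMS.

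Against UNDIF, 46 of the 48 genes were lower in FT671_NEUR libraries and 0 higher, beside 43.9% and 44% of all genes, and 43 fell at least 2-fold, beside 23%. The median was -2.09. No gene was called higher by edgeR or DESeq2 on recovered reads either, and none had a positive log2 fold change. MCM10 was 10.8-fold lower, PRIM1 10.2-fold, DTL 9.69-fold and MCM2 8.43-fold lower. RFC1 (-0.08, adjusted p = 0.338) and CCNE1 (-0.19, adjusted p = 0.0538) were not called. CCNE2, E2F1 and TYMS, which rose in the untreated course, were below UNDIF in FT671_NEUR libraries (log2 fold changes -0.84 for CCNE2, -1.77 for E2F1 and -1.02 for TYMS). By group mean, FT671_NEUR was lowest for 46 of the 48 genes, and the highest mean was in UNDIF libraries for 38, in DMSO_NEUR for 5 and in NEUR for 5.

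The solvent made no detectable difference to these genes. Between DMSO_NEUR and NEUR, 0 of the 48 were called higher and 0 lower by limma, and 0 had an unadjusted p under 0.05, while 0.00751% of all genes were called higher and 0.391% lower. The counts were also 0 by edgeR and DESeq2 on recovered reads. Log2 fold changes ran from -0.18 to 0.21 with standard errors of 0.06 to 0.24, and the smallest adjusted p of the 48 was 0.658. RRM2 had 3736, 3019 and 2874 normalized counts in DMSO_NEUR libraries, against 2936, 3057 and 2843 in NEUR libraries, and E2F1 had 1285, 1283 and 1206, against 1160, 1203 and 1353, so the groups overlapped in both. Of the surface epithelium markers 5 of 11 were called lower in DMSO_NEUR than in NEUR libraries.

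Other genes of the pathway, from lists written with earlier results of these data known, fell with FT671 in most cases, beside 39.7% of all genes lower and 40.2% higher. Of 29 further replication genes measured, 26 fell and 2 rose (median -1.22). The falls were led by DSCC1 (-2.62), of an alternative clamp loader, TOP2A (-2.36), the topoisomerase of proliferating cells, CCNA2 (-2.29), the S-phase cyclin, and DNA2 (-2.17), a nuclease for long flaps. The rises were POLD4 (1.36), the smallest subunit of polymerase delta, and CDK2 (0.42). CDK2, the kinase partner of the E-type cyclins, had 2955, 3046 and 2969 normalized counts in FT671_NEUR libraries, against 2159, 2280 and 2261 in DMSO_NEUR libraries. CCNE1 was also higher in FT671_NEUR libraries, by the fragile call given above. In NEUR against UNDIF, CDK2 rose (1.48) while CCNE1 fell (-0.39). Of 12 further nucleotide genes, 8 fell and 3 rose (median -0.66). SHMT1 (-1.46), an enzyme of folate metabolism, and DUT (-1.37), which removes dUTP, fell, whereas GUK1 (1.20), RRM2B (0.64), the p53-regulated small subunit of ribonucleotide reductase, and DCTD (0.22) rose. RRM2 and RRM2B thus moved in opposite directions. All 9 measured chromatin genes of S phase fell (median -1.41), with NASP (-2.74), a histone chaperone, CDCA7 (-2.71), ASF1B (-2.36) and HELLS (-1.98) in the lead.

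Regulators of the E2F and retinoblastoma pathway split, with 15 of 23 lower and 5 higher (median -0.59). E2F2 (-3.09) and E2F7 (-2.21), an activating and a repressing E2F factor, FOXM1 (-2.15) and MYBL2 (-1.84), which act on genes of later cell-cycle phases, fell. E2F2 had 43.45, 41.04 and 26.54 normalized counts in FT671_NEUR libraries, against 325.8, 311.9 and 307.8 in DMSO_NEUR libraries. CDKN1A (1.25), the p53-regulated inhibitor of cyclin-dependent kinases, CCND3 (0.85), CDKN1C (0.57) and RBL2 (0.29) rose. CDKN1A had 15135, 14701 and 16942 normalized counts in FT671_NEUR libraries, against 6573, 6327 and 6756 in DMSO_NEUR libraries, and 6260, 6559 and 7049 in NEUR libraries, against 641, 594.6 and 604.2 in UNDIF libraries. CDKN1A rose in both comparisons. Of 21 genes of the fork checkpoint and of repair, 19 fell and 0 rose (median -1.14), led by EXO1 (-2.54), BRCA1 (-2.45), BRCA2 (-2.12) and FANCI (-1.88).

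Genes of mitosis, the later phase of the cycle, fell as well. All 25 measured were lower in FT671_NEUR than in DMSO_NEUR libraries (median -2.16), from CENPF (-3.11), BUB1B (-2.96), BIRC5 (-2.67) and CDC20 (-2.45) to KIF23 (-1.48). Together they took 0.0870% ± 0.0102 of reads in FT671_NEUR, against 0.425% ± 0.0134 in DMSO_NEUR, 0.390% ± 0.0181 in NEUR and 0.551% ± 0.0311 in UNDIF libraries (SD, n = 3 each). The fall with FT671 was therefore not particular to replication genes. Between NEUR and UNDIF, where 41.6% of all genes fell and 40.4% rose, 16 of the 25 fell and 1 rose, and of the other lists 19 of 29 further replication genes fell and 5 rose, 4 of 12 nucleotide genes fell and 7 rose, 5 of 9 chromatin genes fell and 2 rose, 3 of 23 E2F and retinoblastoma regulators fell and 10 rose, and 13 of 21 checkpoint and repair genes fell and 2 rose. The 10 of 23 regulators that rose are a share near that of all genes.

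**Figure D5:**
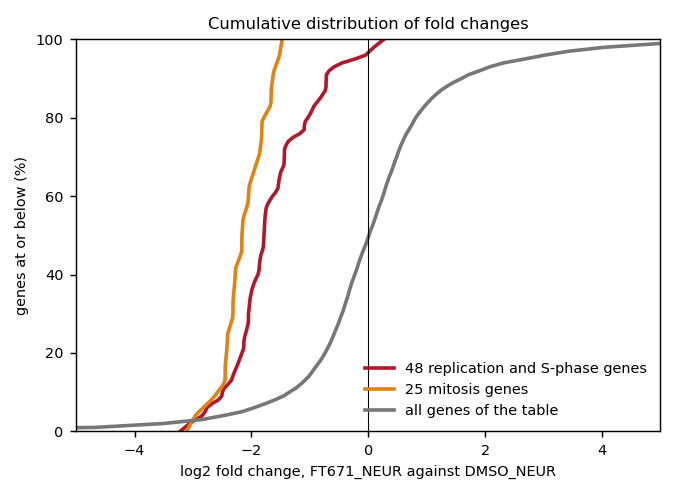
Cumulative share of genes (y axis, percent) at or below each log2 fold change of FT671_NEUR against DMSO_NEUR (x axis), for the 48 replication and S-phase genes (red), 25 mitosis genes (orange) and all genes of the table (grey, tails past the axis not drawn). The red curve lies left of the grey one over most of its range, with medians of -1.79 and 0.01, and the orange curve, with a median of -2.16, lies left of the red one over most of its range.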

How the data were processed

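Polyadenylated RNA of 12 H9 libraries was sequenced, per the labels' protocols. The submitters' processing notes name STAR, HTSeq, DESeq2, R 4.3.1 and the hg19 build; annotation and settings are not given in the sources used here. The deposited signal is the authors' gene read count divided by 1 size factor per library, plus 1, as the values themselves show: after subtraction of 1, 100% of values were whole reads of their library (tolerance 0.001, largest deviation 4.9e-05), with relative size factors of 0.9309 to 1.063. A deposited p-value column holds an FDR by the authors (undifferentiated and neural cells compared). Of 47 columns, 32 were not used. The sheet's title names a USP7 heterozygote; the labels, which give a wild-type genotype, were followed. Columns named ESC and NSC were taken as UNDIF and NEUR.

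Normalized counts (deposited value minus 1) were tested as log2(count + 1) with limma 3.58.1 (R 4.3.3), trended empirical Bayes, 1 mean per group over 12 libraries and Benjamini-Hochberg adjustment over 13310 genes. Fold differences are ratios of mean normalized counts. No low-value filter was used, since the smallest mean was 12.2, so all 48 genes were tested. Alternatives were edgeR 4.0.16 and DESeq2 1.42.0 on recovered reads, other scalings, a pseudocount of 8, a minimum mean of 100, a fold minimum, the replicate block, the 6 libraries of a comparison alone, and each library left out. The scripts were tested on simulated data. Promoter windows are RefSeq's (GRCh38.p14), matched by symbol for 41 of 48 genes; positions count from the start, with no position 0. In each role class, values of every library are given for the largest and smallest fold change with FT671 and for genes called against the majority; in other lists up to 4 called genes in each direction are named, and KIF23, the marker genes and the library values of CDK2, CDKN1A and E2F2 go beyond that rule, and 1 gene it names is not reported here. Members and lists were chosen with earlier results of these data known.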

Additional observations from a re-analysis of the deposited data

How the results depend on the processing

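Counts below are of the 48 genes. With 1 library left out at a time, FT671_NEUR against DMSO_NEUR gave 45 lower throughout and 0 to 1 higher, NEUR against UNDIF 26 to 32 lower and 5 to 6 higher, DMSO_NEUR against UNDIF 26 to 33 lower and 5 to 6 higher, and FT671_NEUR against UNDIF 46 to 47 lower and 0 higher; the 0 came without DMSO_NEUR replicate 2. With libraries scaled by their totals, the median of all genes was -0.11 for FT671_NEUR against DMSO_NEUR, in place of 0.01. For NEUR against UNDIF it was -0.17, in place of -0.03. There 46 genes were lower and 0 higher with FT671, ORC2 being newly called (-0.19) and RFC1 at -0.04. In NEUR against UNDIF 37 were lower and 5 higher, with MCM10, PCNA, RFC3, FEN1 and CLSPN newly called lower and TK1 no longer called, and MCM7 (-0.00), POLA2 (-0.09), LIG1 (-0.09) and CHAF1B (-0.13) turned negative. With 1 library left out POLA2 ran from -0.01 (without NEUR replicate 3) to 0.09 and CHAF1B from -0.06 (without UNDIF replicate 1) to 0.05, and none of these was called. A fold minimum of 2 left 0 higher with FT671, 0 higher and 4 lower in NEUR against UNDIF, and 1 higher and 4 lower in DMSO_NEUR against UNDIF; fewer genes can pass it by construction. The cause of the other changes was not tested. Replicate numbers did not pair libraries (correlations of deviations from -0.172 to 0.0693); with the replicate block, FT671_NEUR against DMSO_NEUR gave 45 lower and 1 higher, and NEUR against UNDIF 33 lower and 5 higher. The 3 libraries per group limit small changes.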

Other observations

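Libraries of a group differed in these genes together. FT671_NEUR replicate 3 was the lowest of its group for 39 of the 48 genes, as it was for 37.2% of all genes, and FT671_NEUR replicate 2 was the highest for 30, as for 34.2% of all genes. DMSO_NEUR replicate 1 was the highest of its group for 38 of the 48, as for 37.1% of all genes, and DMSO_NEUR replicate 3 the lowest for 29, as for 26.1% of all genes. The mitosis genes took 0.0754% of reads in FT671_NEUR replicate 3, against 0.0910% and 0.0945% in replicates 1 and 2, and 0.440% in DMSO_NEUR replicate 1, against 0.419% and 0.415% in replicates 2 and 3. With FT671_NEUR replicate 3 or DMSO_NEUR replicate 1 left out, 45 of the 48 genes were still called lower with FT671.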
